A study of Mus musculus with 4 samples.

Results

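The genes described here are 10 cell surface markers used to isolate skeletal stem and stromal cells, Itgav, Cd200, Eng, Thy1, Ly6a, Nt5e, Pdgfra, Pdgfrb, Mcam and Cspg4. They were chosen by gene symbol, and all 10 were found among the 28006 features of the count tables. Single cells had been sorted for tdTomato from mouse femurs after mechanical ablation of the marrow in one leg. CONT cells came from the contralateral, unoperated femur and ABL cells from the ablated femur, both taken 7 days after ablation and from Cxcl12-iCreER; R26R(tdTomato/+) mice given tamoxifen 7 days before it. There was 1 library per group in each of 2 replicates (CONT1, ABL1, CONT2 and ABL2), with Chromium v2 chemistry in replicate 1 and v3 in replicate 2, so replicate and chemistry cannot be told apart. All 4 libraries share the recombinase, reporter and tamoxifen, CONT mice carried an ablated bone in the other leg, and the recombinase is driven from a Cxcl12 transgene, which marks the cells that used it at the time of tamoxifen. The study's methods pooled cells of several mice in replicate 1.

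Stem cells of bone are sorted by antibodies against such proteins, and each combination was set up to enrich another fraction. Integrin alpha V (Itgav) and CD200 (Cd200), in the absence of Thy1, endoglin (Eng) and Enpep, define the mouse skeletal stem cell. PDGFRA (Pdgfra) with Sca-1 (Ly6a) defines a fraction of perivascular mesenchymal stem cells. CD73 (Nt5e), CD90 (Thy1) and CD105 (Eng) are the classical positive markers of cultured stromal cells. PDGFRB (Pdgfrb), CD146 (Mcam) and NG2 (Cspg4) mark pericytes. Transcripts counted here are not surface protein, and a cell without a UMI (a unique molecule count) of a gene may still carry its protein.

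After cell calling there were 3433 cells in CONT1, 1459 in ABL1, 2404 in CONT2 and 2537 in ABL2, with a median of 5714 to 12896 UMIs per cell. The cells held 1163, 405, 1972 and 342 reticular-like cells in that order, the Cxcl12-rich stromal cells of the marrow, among 1313, 692, 2053 and 1809 mesenchymal cells in all. The 10 reticular markers all had UMIs in the reticular-like cells, summing to 28868 to 33991 UMIs of the genes per 1000000 UMIs of the class (CPM). The same markers had named the clusters, so these levels are no independent support for the name. All 10 also had UMIs in the hematopoietic cells of each library, summing to 1052 to 2768 CPM. The sort also held 2032, 767, 326 and 613 hematopoietic cells, which were used for comparison. They are not a clean background, since osteoclasts held Itgav, T or NK cells held Thy1 and some of the cells express Ly6a. ABL2 stood apart: Xist was found in 0.0553% of its mesenchymal cells against 49.7% to 81.4% in the other 3 libraries, so that CONT2 and ABL2 do not look like legs of the same mice. Y-linked transcripts were found in 70.5% of these cells in ABL2, against 29.8% in CONT1, 15.8% in ABL1 and 26.5% in CONT2. By these genes ABL2 looks male and the other 3 libraries look mixed in sex. In replicate 2, group and sex therefore cannot be told apart. The replicate 1 libraries also differed, with Xist in 49.7% of the cells of CONT1 and 81.4% of ABL1, and Y-linked transcripts the other way. Whether CONT1 and ABL1 have the same mix of sexes was not tested. CONT1 and ABL1 shared 5 cell barcodes, and CONT2 and ABL2 shared 1.

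Among the progenitor code genes, Itgav, the alpha subunit of the vitronectin receptors, was measured at 126 CPM in reticular-like cells of CONT1, 181 in ABL1, 142 in CONT2 and 127 in ABL2. The groups overlapped, and the log2 fold change of ABL against CONT was 0.08 ± 0.27 (SE, n = 2 libraries per group, adjusted p = 0.955). Itgav was higher in osteoclasts, which use alpha V beta 3 integrin to attach to bone, at 493 CPM in ABL1 (20 cells) and 239 in ABL2 (82 cells), where 70.0% and 40.2% of the cells had a UMI once every cell was thinned to 2000 UMIs. Among skeletal classes its level lay between 36.3 CPM in chondrocyte-like cells of ABL1 and 181 in the reticular-like cells of the same library.

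Cd200, an immunoglobulin superfamily protein that signals to myeloid cells through its receptor, differed more between replicates than between groups. Its level in reticular-like cells was 190 CPM in CONT1 and 158 in ABL1, against 55.0 in CONT2 and 72.5 in ABL2. The v2 libraries were both above the v3 libraries, while CONT and ABL overlapped (log2 fold change −0.04 ± 0.26, adjusted p = 0.976). Osteoblast-like cells held 274 CPM in CONT1, 295 in ABL1 and 226 in ABL2, and pre-osteoblast-like cells 278 and 291 in the replicate 1 libraries. Chondrocyte-like cells had 258 and 139 in ABL1 and ABL2, so Cd200 was found across the skeletal lineages and not in reticular-like cells alone.

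Eng, a co-receptor for TGF-beta and BMP ligands, was measured at 710 CPM in endothelial-like cells of CONT1, 925 in CONT2 and 666 in ABL2, its usual site of expression, with a UMI in 66.1% to 84.0% of these cells at 2000 UMIs. Reticular-like cells held 56.5, 63.2, 35.9 and 51.1 CPM in CONT1, ABL1, CONT2 and ABL2. All 4 values were below every endothelial one, and they overlapped between the groups (log2 fold change 0.23 ± 0.23, adjusted p = 0.745).

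**Figure D1:**
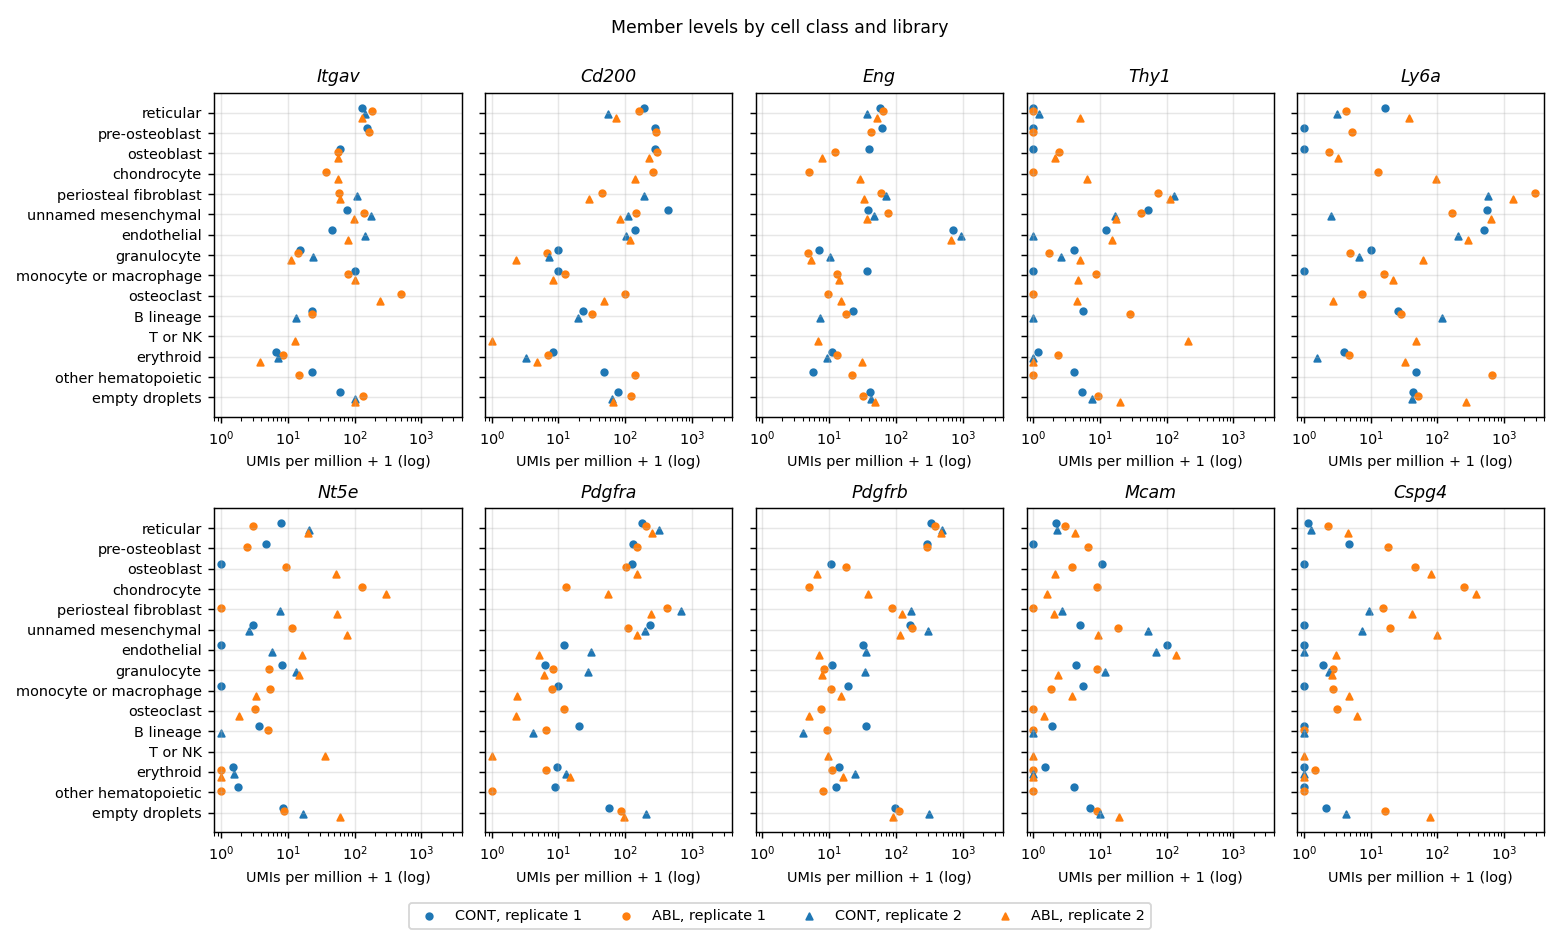
Level of each of the 10 genes (x axis, CPM plus 1, log scale) in each cell class with at least 10 cells and in empty droplets (y axis). Each point is 1 library (circles replicate 1, triangles replicate 2, blue CONT, orange ABL); Eng lies at 666 to 925 in endothelial-like cells, and Cspg4 at 246 and 378 in the chondrocyte-like cells of ABL1 and ABL2.

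Pdgfra and Pdgfrb, the receptors for platelet-derived growth factors, were found in more reticular-like cells than the other members, except that Cd200 (30.4%) passed Pdgfra in CONT1. After thinning, 29.2%, 34.6%, 45.4% and 40.4% of these cells had a UMI of Pdgfra in CONT1, ABL1, CONT2 and ABL2, and 46.9%, 51.4%, 57.7% and 58.2% had a UMI of Pdgfrb. The matching shares in hematopoietic cells were 0.653% to 1.83% for Pdgfra and 1.14% to 2.76% for Pdgfrb. Without thinning, 53.2% to 90.7% of reticular-like cells had a UMI of Pdgfra and 75.2% to 97.5% one of Pdgfrb.

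Levels of these receptors did not separate CONT from ABL in reticular-like cells. Pdgfra was measured at 177, 202, 323 and 248 CPM in CONT1, ABL1, CONT2 and ABL2 (log2 fold change −0.20 ± 0.31, adjusted p = 0.854) and Pdgfrb at 336, 385, 485 and 464 (−0.04 ± 0.34, adjusted p = 0.982). Replicate 2 was above replicate 1 for both receptors. Outside the reticular-like cells the receptors parted: osteoblast-like cells held 9.77, 17.0 and 5.69 CPM of Pdgfrb in CONT1, ABL1 and ABL2 beside 127, 103 and 147 of Pdgfra. Pre-osteoblast-like cells, by contrast, still had 294 and 286 CPM of Pdgfrb in CONT1 and ABL1. No cluster of replicate 2 was named so, and the unnamed clusters that scored best for this class differed. Pdgfrb was at 111 CPM in 336 cells of ABL2 led by Msmp, Fmod and Lum. In the cluster led by Spp1, Acta2 and Rgs5 it was at 344 in CONT2 and 330 in ABL2. Periosteal fibroblast-like cells had 422, 688 and 238 CPM of Pdgfra in ABL1, CONT2 and ABL2 against 87.3, 169 and 121 of Pdgfrb.

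Nt5e, the enzyme CD73 that makes extracellular adenosine from AMP, was measured at 6.85, 1.99, 19.9 and 19.1 CPM in reticular-like cells of CONT1, ABL1, CONT2 and ABL2. ABL1 was the lowest and ABL2 lay beside CONT2 (log2 fold change −0.65 ± 0.34, adjusted p = 0.352). Free RNA, at a share of 25.2% estimated from hemoglobin UMIs, would give 15.2 of the 19.1 CPM in ABL2. With it subtracted the log2 fold change was −2.14 ± 0.45 (adjusted p = 0.0152). The share is too high for at least Cspg4, as it would give 19.3 CPM where 3.68 were measured in ABL2, and the subtracted fold change carries this error. Within the reticular-like cells of CONT2, the level ran from 0 to 57.7 CPM over 7 clusters, highest in the 499 cells led by Serpina3n, Igfbp3 and Cldn10. In ABL2 the same cluster (78 cells) was again the highest, at 36.3. The chondrocyte-like cells exceeded both, at 129 CPM in ABL1 (15 cells, 95% exact Poisson interval 88.3 to 182) and 299 in ABL2 (88 cells, 273 to 326).

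Ly6a, the stem cell antigen Sca-1, was at 15.6, 3.31, 2.13 and 36.4 CPM in the reticular-like cells of CONT1, ABL1, CONT2 and ABL2. ABL was below CONT in replicate 1 and above it in replicate 2, so the libraries of a group did not lie on one side. Ly6a was still the 1 member of 7 tested that passed the threshold in reticular-like cells (log2 fold change 1.35 ± 0.38, adjusted p = 0.0106), against 4.59% of all 11384 genes tested and 2.41% for higher calls; 2.19% were called lower, and no member. None of the 7 tested members had both ABL libraries above both CONT libraries (14.9% of all genes tested) or below them (12.3%). The log2 fold change was −2.30 in replicate 1 alone and 3.91 in replicate 2 alone, and −1.53 without ABL2, where no member passed, and 1.16 with no replicate block (adjusted p = 1.00); of 17 alternative settings 7 kept the call, with adjusted p from 0.000255 to 1.00. In ABL2 the transcript was also found at 59.0 CPM in granulocytes, 31.6 in erythroid cells and 271 in empty droplets, against 41.8, 50.2 and 40.5 in empty droplets of CONT1, ABL1 and CONT2. Hemoglobin UMIs put free RNA at 25.2% of the reticular-like UMIs in ABL2 and at 9.88%, 9.97% and 0.936% in CONT1, ABL1 and CONT2. Free RNA at these shares would give 4.13, 5.002, 0.379 and 68.3 CPM of Ly6a in CONT1, ABL1, CONT2 and ABL2, below the measured level in both CONT libraries and above it in both ABL libraries. More free RNA than was measured cannot be present, so the share for ABL2 is too high. The share for ABL1 may be too high as well, though the measured level there rests on 10 UMIs. With free RNA subtracted, Ly6a no longer passed the filter on low counts and had no fold change, so this setting is not among the 17. At 2000 UMIs, 1.38%, 1.23%, 0.254% and 1.17% of reticular-like cells had a UMI, and 1.53%, 2.61%, 1.84% and 3.26% of hematopoietic cells, some of which express Ly6a themselves.

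The classes with Ly6a were others. Periosteal fibroblast-like cells held 2850.5 CPM in ABL1 (11 cells), 565 in CONT2 (30 cells) and 1356 in ABL2 (530 cells). Endothelial-like cells held 502, 206 and 284 in CONT1, CONT2 and ABL2. A cluster of 195 unnamed cells of ABL2, led by Prg4, Clic5 and Hbegf, had 1716 CPM of Ly6a beside 2.5 of Cd200, and 50 unnamed cells of CONT1, led by H19, Timp1 and Prg4, had 890 beside 618. Ly6a belongs to a family of similar genes, and how reads shared between its members were counted is not given in the sources used here.

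Thy1, the GPI-anchored protein CD90, was listed with 0 UMIs in the reticular-like cells of CONT1 and ABL1, with 6 UMIs (0.23 CPM) in CONT2 and with 11 (4.05 CPM) in ABL2. Like Mcam and Cspg4, it did not pass the filter on low counts there. With no filter the log2 fold changes were 3.90 for Thy1 (adjusted p = 0.223), 0.99 for Mcam (0.865) and 3.25 for Cspg4 (0.128), none past the threshold. Among classes of at least 10 cells, its highest level was in the T or NK cells of ABL2, at 209 CPM (45 cells, 95% interval 164 to 263), and CD90 is a known antigen of mouse T cells. Periosteal fibroblast-like cells came next, at 72.7, 128 and 109 CPM in ABL1, CONT2 and ABL2.

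Mcam, an adhesion molecule of endothelium and pericytes, was between 1.20 and 3.31 CPM in reticular-like cells of the 4 libraries. Endothelial-like cells had 98.6, 68.7 and 137 CPM in CONT1, CONT2 and ABL2. Among named classes the level was highest in 17 cells led by Rgs5, Acta2 and Tagln, genes of smooth muscle and pericytes, where 8 cells of CONT1 had 322 CPM (10 UMIs, 155 to 593) and 9 of ABL1 had 420 (29 UMIs, 281 to 603). In these cells Pdgfrb was at 419 and 579 CPM and Cspg4 at 96.7 (3 UMIs) and 130 (9 UMIs). Cd200 was at 258 (8 UMIs) and 535 (37 UMIs) and Thy1 at 32.2 (1 UMI) and 318 (22 UMIs, 200 to 482). Ly6a was at 0 and 318 CPM, with its 22 UMIs in 1 cell of ABL1. This class, with under 10 cells in each library, was described after its values had been seen. In replicate 2 no cluster was named so, but 36 cells of CONT2 and 141 of ABL2 lay in an unnamed cluster led by Spp1, Acta2 and Rgs5, with 13.4 and 31.3 CPM of Mcam, 344 and 330 of Pdgfrb and 3.8 and 23.2 of Cspg4.

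Cspg4 encodes the proteoglycan NG2, found on pericytes and also on chondrocytes and osteoblast-lineage cells. The gene lies at chr9:56865033-56899870 on the plus strand (GRCm38), and its upstream bases are shown because it gave the largest change of the 10 genes. The 179 bases before the annotated start, taken from RefSeq GRCm38.p6, have 60.3% G and C against a median of 51.4% over 32851 windows of that length, and the capitals mark the letters GGGCGG (a GC box) or their complement.
Cspg4, chr9:56864854-56865032, plus strand: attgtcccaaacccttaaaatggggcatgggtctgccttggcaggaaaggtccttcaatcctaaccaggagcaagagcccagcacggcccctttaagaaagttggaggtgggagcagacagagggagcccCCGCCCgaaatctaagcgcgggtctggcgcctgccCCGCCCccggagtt
The window held 2 matches on either strand, and 20.9% of all windows had at least 1. The CCAAT box (CCAAT, in 24.8% of all windows), the TATA box (TATAAA, in 8.34%) and a SOX motif (ACAAAG, in 12.2%) were also searched on both strands and gave 0 matches. The matches say nothing of which factor binds there.

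Cspg4 was rare in reticular-like cells, with 1, 4, 8 and 10 UMIs in CONT1, ABL1, CONT2 and ABL2 (0.17, 1.32, 0.30 and 3.68 CPM). It reached 246 CPM in the chondrocyte-like cells of ABL1 (61 UMIs, 188 to 316) and 378 in those of ABL2 (349 to 408). Osteoblast-like cells had 45.2 and 78.5 CPM in ABL1 and ABL2, while 11 such cells of CONT1 had 0 UMIs, which allows up to 29.3 CPM (3 counts). Unnamed cells of ABL2 lay between these classes, at 105 CPM in 336 cells led by Msmp, Fmod and Lum, 106 in those led by Prg4, and 117 in 128 cells led by C1qtnf3, Postn and Tnn. Endothelial-like cells, in contrast, had 0, 0 and 2.03 CPM in CONT1, CONT2 and ABL2.

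Summed over all mesenchymal cells, Cspg4 was measured at 2.62 CPM in CONT1, 23.5 in ABL1, 1.52 in CONT2 and 87.7 in ABL2. Both ABL libraries were above both CONT libraries, as for 21.2% of all genes tested. The log2 fold change of Cspg4 was 4.57 ± 0.64 (adjusted p = 0.00125), and it was 3.02 and 5.74 in replicates 1 and 2 alone. Thy1 was at 4.80, 12.9, 3.33 and 41.6 CPM, again with both ABL libraries on top (log2 fold change 2.56 ± 0.56, adjusted p = 0.0169, and 1.32 and 3.59 in the single replicates). These were 2 of 10 members past the threshold, both higher in ABL, against 3.82% of 13717 genes called 2.7% as higher and 1.12% as lower. With no replicate block neither passed (log2 fold changes 4.82 and 2.78, adjusted p = 0.477 for both), while DESeq2 with the block called both. No integration and a higher clustering resolution left the mesenchymal cell numbers and the number of genes called (524) unchanged, so in the count that follows they repeat the reported fit. Over 19 alternative settings Cspg4 passed in 14 and Thy1 in 13, and neither passed without CONT1, CONT2 or ABL2, in fits with no block.

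The mesenchymal cells of the groups differed in kind, and the part of this in both calls was not tested. Reticular-like cells were 342 of 1809 mesenchymal cells in ABL2 and 405 of 692 in ABL1, against 1972 of 2053 in CONT2 and 1163 of 1313 in CONT1. The summed level of the 10 reticular markers was 27896, 16606, 32835 and 3810 CPM in CONT1, ABL1, CONT2 and ABL2, that of the 8 osteoblast markers 7463, 29682, 7666 and 24663, and that of the 8 periosteal markers 804, 1164, 547 and 5141. With the reticular-like cells left out, in a setting chosen after the data were seen, the log2 fold change was 1.78 for Cspg4 (adjusted p = 0.0709) and −0.35 for Thy1 (adjusted p = 0.816), from 150, 287, 81 and 1467 cells, and no member passed among 10572 genes of which 107 did. Without ABL2 and with no block, the values were 3.42 for Cspg4 (adjusted p = 0.123) and 1.56 for Thy1 (adjusted p = 1.00). Free RNA in the empty droplets moved the same way, with Cspg4 at 1.14, 15.2, 3.33 and 76.5 CPM and Thy1 at 4.45, 8.55, 6.66 and 18.9 in CONT1, ABL1, CONT2 and ABL2. In ABL2, granulocytes and erythroid cells held 1.69 and 0 CPM of Cspg4 against its 87.7 in mesenchymal cells. The part of free RNA in both calls was not tested either.

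**Figure D2:**
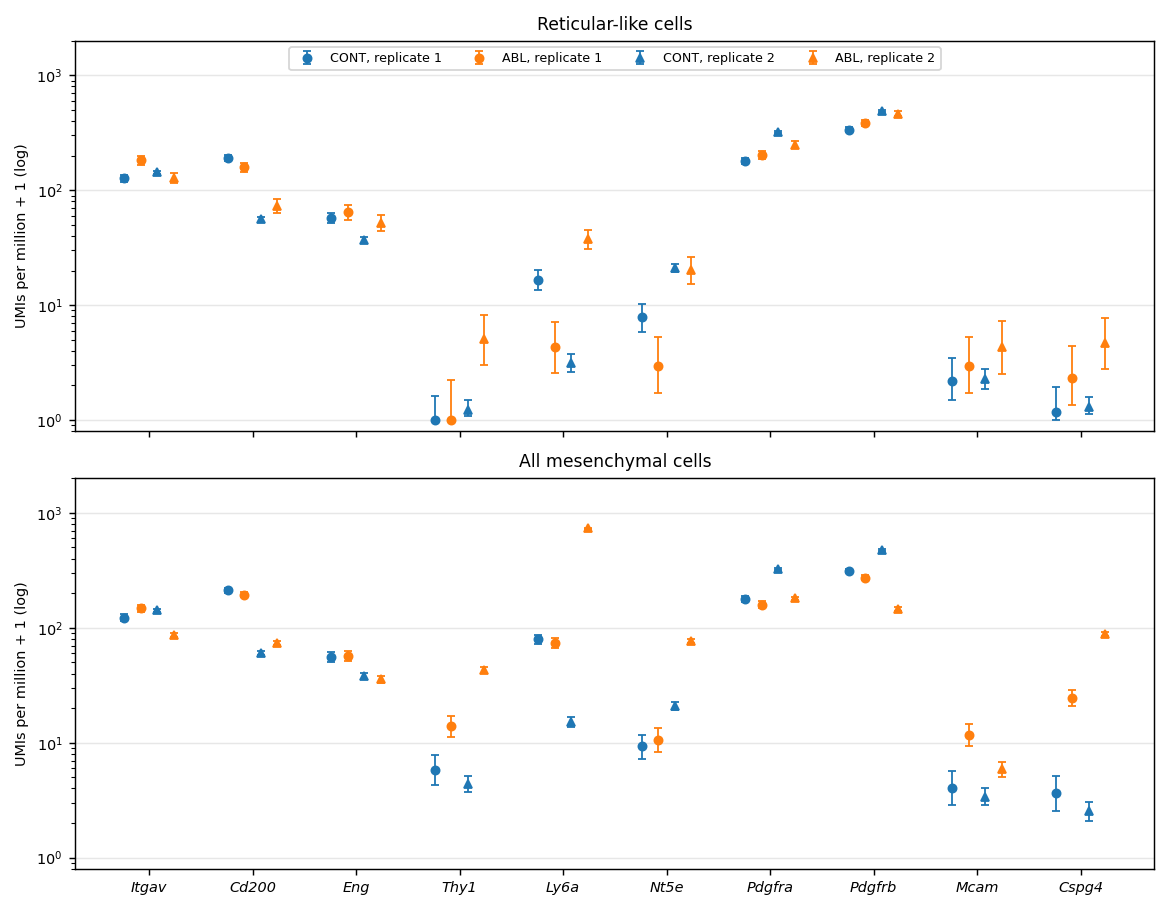
Level of each gene (y axis, CPM plus 1, log scale) in reticular-like cells (top) and all mesenchymal cells (bottom) of the 4 libraries, with 95% exact Poisson intervals that cover counting error alone. In all mesenchymal cells Cspg4 stands at 23.5 and 87.7 in ABL1 and ABL2 above 2.62 and 1.52 in CONT1 and CONT2, and Ly6a stands at 730 in ABL2 alone.

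The other 8 members gave no call in the mesenchymal sums. Ly6a was at 78.4, 72.9, 14.2 and 730 CPM in CONT1, ABL1, CONT2 and ABL2 (log2 fold change 2.75 ± 1.28, adjusted p = 0.291), so that 1 library carried its difference. Nt5e was at 8.29, 9.58, 19.9 and 76.1 (1.09 ± 0.49, adjusted p = 0.268), also highest in ABL2. Mcam was at 3.05, 10.7, 2.39 and 4.88, with both ABL libraries above both CONT libraries, and still missed the threshold (1.36 ± 0.57, adjusted p = 0.231). Pdgfrb was at 311, 271, 472 and 145, with both ABL libraries below both CONT libraries (−0.997 ± 0.61, adjusted p = 0.470), and Pdgfra at 177, 158, 327 and 179 (−0.56 ± 0.53, adjusted p = 0.699). Itgav, Cd200 and Eng had log2 fold changes of −0.28, 0.04 and −0.07. Thus 3 of 10 members had both ABL libraries on top, against 21.2% of all genes tested, and 1 had both below, against 21.7%. The median log2 fold change was 0.57 over the 10 members and −0.06 over all genes in the mesenchymal cells, and −0.04 over the 7 members and −0.01 over all genes in the reticular-like cells.

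**Figure D3:**
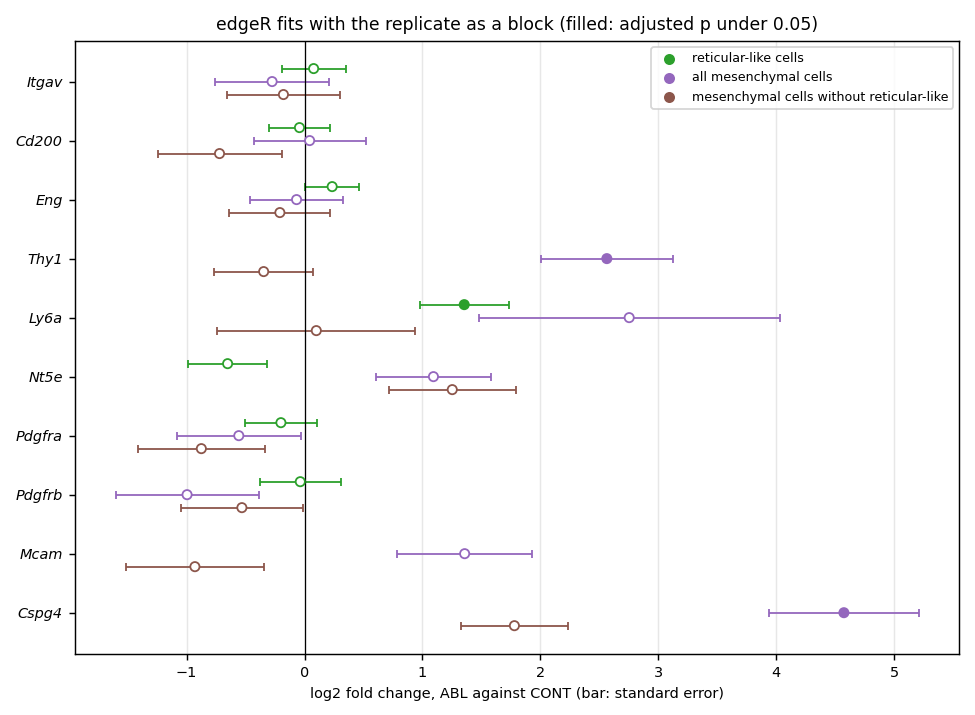
Log2 fold change of ABL against CONT (x axis) for each gene (y axis) from edgeR fits on reticular-like cells, all mesenchymal cells and mesenchymal cells without the reticular-like ones, with standard errors and filled points where the adjusted p was under 0.05. Cspg4 at 4.57 and Thy1 at 2.56 are filled in all mesenchymal cells and open, at 1.78 and −0.35, once the reticular-like cells are left out; Ly6a at 1.35 is filled in reticular-like cells, with opposite directions in the 2 replicates.

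Ligands, partners and neighbours of the members were read from 37 genes listed with them. Of the PDGF ligands, Pdgfc was called higher in reticular-like cells (0, 4.63, 0.34 and 4.42 CPM in CONT1, ABL1, CONT2 and ABL2, log2 fold change 4.13 ± 0.88, adjusted p = 0.000192). That call rests on 0, 14, 9 and 12 UMIs, and the part of free RNA in it was not tested. Pdgfc passed the filter on low counts through its ABL libraries alone, so it was tested only because it was high in ABL. Its call, its place in the counts below and the order of its libraries are therefore no support for a difference. Pdgfd was called lower (40.6, 29.4, 32.6 and 13.2 CPM, log2 fold change −0.95 ± 0.25, adjusted p = 0.00605). These were 2 of 3 tested, against 4.59% of all genes called. Both ABL libraries lay above both CONT libraries for Pdgfc, as for 14.9% of all genes tested, and below them for Pdgfd, as for 12.3%. Their receptors gave no call. Pdgfc was also called in all mesenchymal cells (2.18, 14.9, 0.69 and 28.3 CPM, 4.09 ± 0.65, adjusted p = 0.00297), the 1 of 3 tested there (3.82% of all genes were called). The part of the different mix of cells in that call was not tested.

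The Ly6 family gave 3 calls of 4 tested in reticular-like cells and 0 of 4 in all mesenchymal cells, against 4.59% and 3.82% of all genes. Ly6e passed as higher (115, 141, 81.3 and 251 CPM in CONT1, ABL1, CONT2 and ABL2, log2 fold change 0.87 ± 0.28, adjusted p = 0.0421), in the same direction in both replicates. Ly6c1, a marker of endothelium and lymphocytes, passed at 2.74, 2.32, 0.23 and 11.0 CPM (adjusted p = 0.00288), but like Ly6a it was below CONT in replicate 1 and above it in replicate 2. Ly6c2, a monocyte gene, passed as lower at 59.1, 33.1, 1.14 and 0.37 CPM (adjusted p = 0.0402). Its counts were 345, 100, 30 and 1 UMIs in CONT1, ABL1, CONT2 and ABL2. The granulocyte markers in the same cells summed to 10180, 6069, 432 and 446 CPM. The monocyte or macrophage markers went the other way in both replicates, at 31.5, 80.4, 7.65 and 13.6 CPM. The part of either in the Ly6c2 difference was not tested.

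Of 13 other skeletal stem and progenitor markers, Cd44, the hyaluronan receptor, passed in both fits, the 1 called in each, against 4.59% and 3.82% of all genes. It was at 20.9, 31.1, 11.3 and 28.7 CPM in the reticular-like cells of CONT1, ABL1, CONT2 and ABL2 (log2 fold change 0.86 ± 0.26, adjusted p = 0.0216; 10 of the 13 tested) and at 25.0, 93.7, 12.9 and 256 in all mesenchymal cells (3.08 ± 0.62, adjusted p = 0.0111; 13 tested). In both, each ABL library was above each CONT library, as for 14.9% of all genes tested in reticular-like and 21.2% in mesenchymal cells. With no replicate block 0 genes passed in either fit, so both Cd44 calls were lost. The part of free RNA in the Cd44 calls, and of the different mix of cells in the mesenchymal one, was not tested. The integrin beta partners of Itgav (3 and 4 of 5 tested in the reticular-like and mesenchymal fits), the TGF-beta and BMP receptors beside Eng (5 of 5 in each) and the adenosine pathway beside Nt5e (3 of 5 in each) gave 0 calls, and the CD200 receptor was too low to be tested.

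Periosteal fibroblast-like cells, in which Ly6a, Thy1 and Pdgfra were high, could be set side by side in replicate 2 alone, with 1 library per group and no test. Cd200 was at 193 CPM in 30 cells of CONT2 (159 to 231) and at 27.7 in 530 cells of ABL2 (24.1 to 31.7), and Pdgfra at 688 (623 to 758) and 238 (227 to 249). Ly6a went the other way, at 565 (506 to 628) and 1356 (1330 to 1382), as did Cspg4, at 8.45 (2.74 to 19.7) and 40.3, and Nt5e, at 6.76 and 52.9. Thy1 was at 128 (101 to 161) and 109 (102 to 117), with intervals that overlap. All these intervals cover counting error alone, and CONT2 and ABL2 do not look like legs of the same mice. Empty droplets of ABL2 held 271 CPM of Ly6a, 76.5 of Cspg4 and 60.5 of Nt5e, against 40.5, 3.33 and 15.9 in CONT2. Their part in these differences was not tested. Of the cells of CONT2, 19 lay in the cluster led by Dio2, Mfap4 and Col14a1, which held 48 of the ABL2 cells, while 482 of the ABL2 cells lay in the cluster led by Clec3b, Igfbp6 and Mfap5, with 11 of the CONT2 cells. Within the Dio2 cluster Ly6a was lower in ABL2 (512 CPM in CONT2, 344 in ABL2), as was Thy1 (157 and 82.2). In the Clec3b cluster both were higher in ABL2 (Ly6a 664 and 1451, Thy1 73.8 and 112). Cd200, Pdgfra, Cspg4 and Nt5e kept their direction in both clusters.

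Co-detection was read at 2000 UMIs per cell, next to the product of the single shares, the value when a UMI of one gene says nothing of the other. Cells with UMIs of both Itgav and Cd200 were 6.45% of reticular-like cells in CONT1 (75 cells, 95% exact binomial interval 5.11% to 8.02%), 6.42% in ABL1 (26 cells, 4.24% to 9.27%), 2.48% in CONT2 (49 cells, 1.84% to 3.27%) and 2.92% in ABL2 (10 cells, 1.41% to 5.31%). Replicates differed, CONT and ABL of a replicate did not beyond their intervals, and the products of the single shares were 6.60%, 7.16%, 2.15% and 2.86%. The mean of the within-replicate differences was 0.205 percentage points, and with 2 libraries per group no exact permutation test can reach 0.05 (the smallest two-sided p is 2 of 4 when libraries are exchanged within replicates), so none was made. At other depths the replicates went opposite ways, by −4.57 and 2.61 points at 4000 UMIs and by 12.1 and −9.44 with no thinning. At 4000 UMIs only 720 of 1163 cells remained in CONT1 and 333 of 405 in ABL1. With no thinning the intervals of CONT and ABL did not overlap in either replicate, but the shares were not at equal depth. The median was 4500 UMIs in reticular-like cells of CONT1, 6639 in ABL1, 12749 in CONT2 and 7484 in ABL2. In each replicate the deeper library had the higher share, and the part of depth was not tested. In hematopoietic cells the pair was found in 0.0492% to 0.979%.

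The skeletal stem cell code, Itgav and Cd200 with no UMI of Thy1, Eng and Enpep, was met by 4.90%, 4.44%, 2.08% and 2.63% of reticular-like cells in CONT1, ABL1, CONT2 and ABL2 (57, 18, 41 and 9 cells). Most cells of the pair thus met the code, which at this depth includes cells whose Eng or Enpep transcripts were not captured. Over all mesenchymal cells the code gave 5.26%, 5.06%, 2.24% and 1.49%.

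Pdgfra and Ly6a were found together in 1.60% of mesenchymal cells of CONT1 (21 cells), 1.16% of ABL1 (8 cells), 0.731% of CONT2 (15 cells) and 14.9% of ABL2 (269 cells, 13.3% to 16.6%). ABL was 0.443 percentage points below CONT in replicate 1 and 14.1 above it in replicate 2, so the mean difference of 6.85 rests on ABL2. The replicate 1 difference was 0.037 points at 1000 UMIs, 0.357 at 4000 and 1.65 with no thinning, so its direction depends on the depth. In the reticular-like cells of ABL2 the pair was found in 2 of 342 cells, and 152 of its 269 cells were periosteal fibroblast-like, where the share was 28.7% (24.9% to 32.7%). The same class had 36.7% in CONT2 (11 of 30 cells, 19.9% to 56.1%) and 36.4% in ABL1 (4 of 11 cells). These shares stood beside products of 28.5%, 35.0% and 37.2%, and the product over all mesenchymal cells of ABL2 was 13.3%. In hematopoietic cells the pair was found in 0% to 0.326%.

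**Figure D4:**
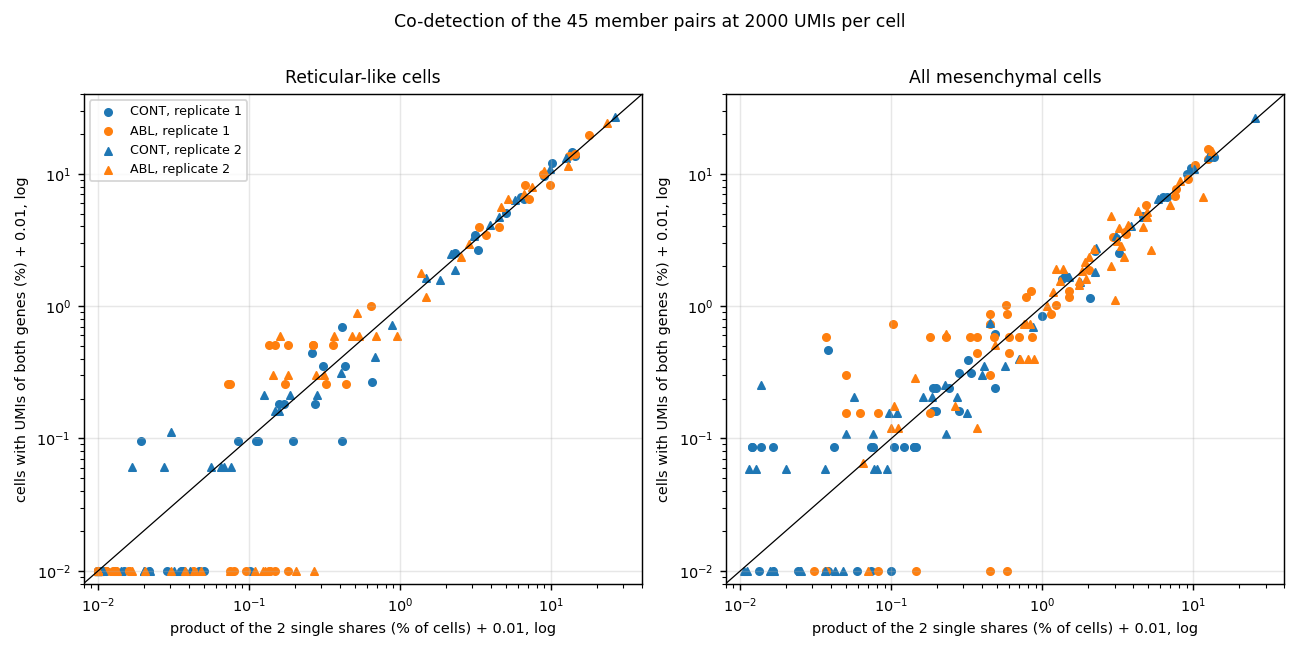
Share of cells with UMIs of both genes (y axis) against the product of the single shares (x axis) for all 45 pairs of the 10 genes at 2000 UMIs per cell, both in percent plus 0.01 on log scales, in reticular-like (left) and all mesenchymal cells (right). Each point is a pair in 1 library and the line marks equality; in all mesenchymal cells of ABL2 the ratio of share to product ran from 0.37 for Pdgfrb with Cspg4 to 1.68 for Thy1 with Ly6a, among pairs with at least 10 cells by the product.

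Pdgfra and Pdgfrb formed the most frequent pair in reticular-like cells, at 14.5%, 19.8%, 26.9% and 24.3% in CONT1, ABL1, CONT2 and ABL2 against products of 13.7%, 17.8%, 26.2% and 23.5%. The classical triple of Nt5e, Thy1 and Eng was found in 0, 0, 0 and 1 mesenchymal cells, and the pericyte triple of Pdgfrb, Mcam and Cspg4 in 1, 1, 0 and 3. Over pairs with at least 10 cells by the product, the ratio of share to product lay between 0.61 and 1.24 in reticular-like cells, with medians of 1.01 to 1.06. In all mesenchymal cells of ABL2, where the classes were most mixed, it lay between 0.37 and 1.68 over 35 pairs. Pdgfrb with Ly6a was found in 6.69% of these cells against a product of 11.5%.

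A reticular-like cell had UMIs of 1.42 to 1.55 members on average in the 4 libraries, and 18.1%, 14.3%, 15.8% and 14.9% of these cells had none in CONT1, ABL1, CONT2 and ABL2. Among hematopoietic cells 75.7% to 87.0% had none. The mean was 2.37 in the periosteal fibroblast-like cells of CONT2, 1.91 in those of ABL2 and 1.64 in the 11 of ABL1, and 0.803 to 0.909 in osteoblast-like cells.

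Across 37 sums of a class in a library with at least 20 cells, over 14 classes, patterns of the members were compared by Pearson's r of log2(CPM + 10). The points share libraries, depth and free RNA and are not independent, so r is given as a description, and the pericyte-like class is too small to be among them. Pdgfra and Pdgfrb were the most alike pair of members (r = 0.87), before Nt5e and Cspg4 (0.81) and Eng and Mcam (0.80), while Mcam and Cspg4 had r = −0.07. Of 11331 genes, those most like Pdgfra were Bicc1, Ltbp1 and Ddr2 (the first at r = 0.97), and those most like Pdgfrb were Ism1, Fbn1 and Loxl1 (0.97). Eng was followed by Dock6, Adcy4 and Stc1 (0.96), Mcam by Bcam, Esam and Prex2 (0.92), Cspg4 by Zfp385b, Pycr1 and Ooep (0.96), and Nt5e by Ooep, Acan and Slc16a4 (0.84). Itgav was most like Agap3, Cmtm4 and Spred1 (0.92), Cd200 like Tsc22d1, Pink1 and Rcn2 (0.87), Ly6a like Ly6c1, Ntn1 and Fbln2 (0.86) and Thy1 like Camk4, Nov and Fam189b (0.73).

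In the genome, Thy1, Mcam, Cspg4 and Nt5e all lie on chromosome 9 (GRCm38, GENCODE M21), Thy1 at chr9:44043384-44048579 and Mcam at chr9:44134469-44142727, with starts 91085 bases apart. Ly6a lies at chr15:74994877-74998031 on the minus strand. Eng (chr2:32646595-32682669) and Pdgfra (chr5:75152292-75198215) share their strand with small annotated genes, and Itgav, Eng, Pdgfra and Mcam overlap genes on the other strand, and how such reads were assigned is not given in the sources used here.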

How the data were processed

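The deposited files hold raw UMI counts per feature and barcode, which the authors made with Cell Ranger on mm10 with transgene sequences added; the version for the v2 libraries is not given in the sources used here. Libraries summed to 22889380 to 44784072 UMIs. The study's filter on cells was kept (v2: 500 genes or more, mitochondrial share up to 20%; v3: 1000 and 15%), with a floor at 0.1 of the 99th percentile of the 3000 deepest barcodes. Droplets of 300 UMIs or fewer served as empty. Doublets were kept; Scrublet (scanpy 1.11.5) marked 78, 8, 2 and 25 cells of CONT1, ABL1, CONT2 and ABL2, and had not worked in CONT2. Clustering used Seurat 5.3.0 (R 4.3.3; 2000 variable genes, 30 components, 20 neighbours, resolution 0.8), for mesenchymal cells after integration within a replicate and without the members and markers. Clusters were named "-like" from 128 marker genes, by a score rule set after the data were seen, and the others stayed unnamed.

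Counts summed per library went into edgeR 4.0.16 (glmQLFTest after filterByExpr and TMM), with the replicate as a block, 1 residual degree of freedom and Benjamini-Hochberg adjustment over all genes tested, at 0.05; adjusted p-values come from this fit unless another is named, and SEs were derived from F. The block follows the contralateral control and the shared chemistry. Deviations from the group means correlated within replicates (r = 0.71 in reticular-like and 0.45 in mesenchymal cells). Xist differed between CONT1 and ABL1, and more so between CONT2 and ABL2. With the block, the residual is the disagreement between the 2 within-replicate differences, which edgeR moderates towards a spread shared over all genes. The SEs and p-values are therefore not the spread of a single gene. In the reticular-like fit the unadjusted p-values are those of a normal curve at the fold change over its SE. A gene's own disagreement between replicates thus had in effect no weight in the reticular-like calls, and it had little in the mesenchymal fit. Ly6a in reticular-like cells had an SE of 0.38 beside log2 fold changes of −2.30 and 3.91 in replicates 1 and 2. Tested on simulated data with 200 changed genes, the fit recovered 7.81% of changes of log2 size 1 and 77.4% of log2 size 2 in reticular-like sums, and 14.9% and 84.1% in mesenchymal sums. Both simulations used a dispersion set at 0.05 and not taken from the data. The members had SEs of 0.23 to 0.38 in the reticular-like fit and 0.40 to 1.28 in the mesenchymal fit. The simulated shares thus do not rank the fits, and recovery in the real mesenchymal sums can be lower. Intervals (95%, exact Poisson for levels and exact binomial for shares) and the floor of 3 counts cover counting error only. Thinning to 2000 UMIs left out 0 mesenchymal and hematopoietic cells.

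The members and gene lists were chosen with earlier results of these data known. All 10 members are named, with the listed genes past the threshold and the 3 genes most like each member. Alternatives were other cell filters, clusterings, normalizations, DESeq2 1.42.0, free RNA subtraction, no block, thinning and leaving out libraries.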

Additional observations from a re-analysis of the deposited data

How the results depend on the processing

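Of 412 values recomputed under the alternatives, 342 kept their direction and their side of the threshold or moved by less than the replicate spread. That spread came from the same 2 replicates, so single replicates of members with no call and of the co-detection shares met the rule nearly by construction. Some of these turned direction and are still among the 342, so the count does not measure how robust the results are. With the reported fit, 1 member was called in reticular-like and 2 in all mesenchymal cells; with no replicate block 0 and 0 members passed, and 0 and 0 genes in all, against 523 and 524 with the block (337 and 1245 at an unadjusted p under 0.05 with no block). In reticular-like cells, 0 members passed with the study filter alone, doublets left out, no integration, cells thinned before summing and DESeq2, and Nt5e was the 1 that passed, as lower (−2.14), with free RNA subtracted, where Ly6a was filtered out. That setting took free RNA shares that give more RNA of some members than was measured. In reticular-like cells these were Cspg4, Ly6a, Mcam and Thy1 in ABL2, Cspg4, Ly6a and Thy1 in ABL1, and Thy1 in CONT1. In mesenchymal cells 1 passed with free RNA subtracted, 0 with reticular-like cells left out and 3, all higher, with no TMM. Genes called in reticular-like cells were 166 with DESeq2, 202 with free RNA subtracted and 225 after thinning; in mesenchymal cells they were 90 with free RNA subtracted, 107 without reticular-like cells, 787 with the stricter cell filter and 1089 with no TMM. The causes were not tested.

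Log2 fold changes that lost their call were, for Ly6a in reticular-like cells, 1.71 with the study filter, 1.31 without doublets, 1.80 after thinning, 1.16 with no replicate block and 0.83 with DESeq2; for Thy1 in mesenchymal cells, 2.70 with free RNA subtracted and 2.78 with no replicate block; and for Cspg4, 4.82 with no replicate block and 1.78 without reticular-like cells. Turned directions were −0.14 (no integration) and −2.30 (replicate 1 alone) for Ly6a in reticular-like cells; −0.35 for Thy1, −0.93 for Mcam and −0.72 for Cd200 in mesenchymal cells without the reticular-like ones; −0.077 for Cd200 in mesenchymal cells with no replicate block; 0.17 for Eng in mesenchymal cells after thinning; and in reticular-like cells 0.060 for Cd200 with no TMM and 0.091, 0.017 and 0.066 for Pdgfrb with free RNA subtracted, thinning and no TMM. Single replicates of members with no call also turned: in reticular-like cells Itgav (−0.22) and Cd200 (0.33) in replicate 2 and Pdgfra (0.043) and Pdgfrb (0.054) in replicate 1, and in mesenchymal cells Ly6a (−0.19), Itgav (0.19) and Cd200 (−0.21) in replicate 1.

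Leaving out each library in turn, with no block, gave 0 to 0 members called in reticular-like and 0 to 3 in mesenchymal cells (3 without ABL1, 0 without any other). A lone library is then assumed to vary like the other group. Log2 fold changes ranged from −1.53 to 3.08 for Ly6a, −0.83 to 0.92 for Cd200, −0.087 to 0.53 for Eng, −0.13 to 0.27 for Itgav, −2.94 to 0.53 for Nt5e, −0.66 to 0.24 for Pdgfra and −0.33 to 0.24 for Pdgfrb in reticular-like cells. In mesenchymal cells they ranged from 3.42 to 5.51 for Cspg4, 1.56 to 3.43 for Thy1, −0.81 to 1.04 for Cd200, −0.33 to 0.19 for Eng, −0.57 to 0.029 for Itgav and −0.70 to 2.46 for Nt5e. The mean difference in cells with Itgav and Cd200 was 0.586 percentage points with stricter cells, −0.978 at 4000 UMIs and 1.32 with no thinning, the last 2 as means of opposite replicates, and that for Pdgfra and Ly6a was 25.0 with no thinning. Depth limits the low members: Thy1, Mcam and Cspg4 did not pass the filter on low counts in reticular-like cells and gave no call without it.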
